A study of Mus musculus with 9 samples.

Results

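The EGF receptor family and its ligands were examined as 10 listed genes, of which 9 were measured, among 19938 genes in all. The genes were taken by symbol: the ligands Areg, Ereg, Hbegf, Tgfa, Btc and Nrg1, the receptors Egfr, Erbb2 and Erbb3, and the receptor inhibitor Errfi1. Areg, which encodes amphiregulin, had no probeset paired with it in the annotation used and is not analysed here. Each of the other 9 genes had 1 probeset of its own, and none lay among the dimmest 30% of genes on the arrays. Mean log2 signals by group were 5.48 to 5.56 for Btc and 5.73 to 5.88 for Erbb3. Both lay below the array medians of 6.17 to 6.20 over all probesets, and whether such signals exceed background was not tested. The cells were urogenital sinus mesenchymal cells, the connective tissue precursors around the epithelial buds of the fetal prostate, taken on gestation day 17 from male fetuses of the CD-1 strain. They were used in the first passage of a primary culture and kept in hormone-stripped serum for 3 days before exposure. The groups were ethanol vehicle, 10 pM 17β-estradiol (E2) and 100 pM E2, given for 4 days, with 3 Affymetrix Mouse Gene 1.0 ST arrays in each group and 9 in all. Every group, vehicle included, also received 690 pM dihydrotestosterone (DHT), so all E2 differences were measured in the presence of androgen. The study asked how low doses of estrogen alter gene expression in these cells. The labels do not say whether replicates came from separate cultures or fetuses, so the spread behind the p-values is that between arrays and may be technical.

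ErbB receptors are tyrosine kinases of the cell surface that work in pairs. Ligands of the EGF type are made as membrane-bound precursors, are released by ADAM proteases, and act on the same or neighboring cells. EGFR binds EGF, TGF-alpha, amphiregulin, epiregulin, betacellulin and HB-EGF. ERBB3 binds neuregulins but has little kinase activity of its own, and ERBB2 binds no known ligand and serves as the preferred partner. Activated receptors signal through RAS and ERK and through PI3 kinase and AKT. They also induce inhibitors, among them the ERRFI1 protein (MIG6), which binds the EGFR kinase domain, and the Sprouty proteins, which act on the RAS to ERK route. Signals between mesenchyme and epithelium direct budding of the prostate from the urogenital sinus.

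No measured member passed the test in any comparison. Values are log2 array signals as deposited, and a call means an adjusted p below 0.05 in limma, by Benjamini-Hochberg over all 19938 genes. In the F test over the 3 groups 0 of 9 members were called, against 0.843% of all genes, and the smallest adjusted p of a member was 0.377. For 100 pM E2 minus vehicle 0 of 9 were called, against 1.13% of all genes, of which 89 rose and 137 fell. For 10 pM E2 minus vehicle 0 of 9 were called, against 0% of all genes, since no gene passed this test. For 100 pM minus 10 pM E2 0 of 9 were called, against 0.833% of all genes. In the comparison of 10 pM E2 with the mean of vehicle and 100 pM E2, which looks for responses that do not follow dose, 0 of 9 were called, against 0.00502% of all genes. Against background shares this low, 0 of 9 says little about the members as a group. At an unadjusted p below 0.05 the members numbered 2 in the F test, 3 for 100 pM minus vehicle, 1 for 10 pM minus vehicle, 2 for 100 pM minus 10 pM and 1 in the non-monotonic comparison. The shares of all genes at this unadjusted level were 9.15%, 10.9%, 3.54%, 10.2% and 5.61% in the same order.

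The intervals say how large a difference the spread between these arrays leaves room for, and that spread may be technical. Over the 27 pairwise differences of the 9 members, the largest was 0.17 on the log2 scale, and 8 exceeded 0.1. The 95% intervals, which are not adjusted for the number of genes, all lay between 0.822-fold and 1.22-fold, and 6 of the 27 did not include equality. For comparison, over all genes the 95th percentile of the size of a difference was 0.204 for 100 pM minus vehicle, 0.149 for 10 pM minus vehicle and 0.193 for 100 pM minus 10 pM. The median difference of the members was 0.04 for 100 pM minus vehicle, where 6 of 9 were higher, and 0.03 for 10 pM minus vehicle, where 7 of 9 were higher. For 100 pM minus 10 pM it was -0.01, and 4 of 9 were higher. The shares of all genes that were higher were 53%, 53.5% and 50.4% in the same order.

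**Figure D1:**
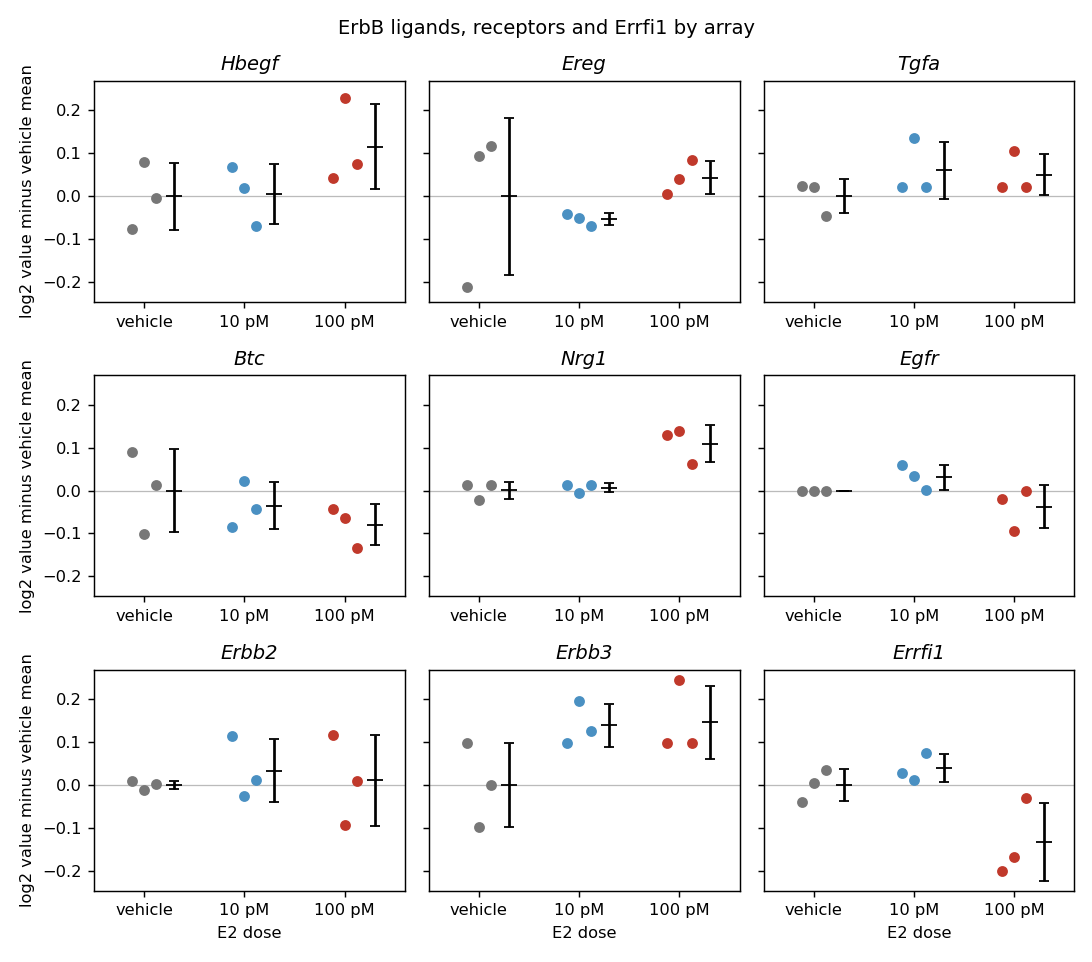
Log2 signal of the 9 measured members on each array, minus the vehicle mean of that gene (vertical axis), by E2 dose (horizontal axis). Points are single arrays, and the black bars are means with SD of 3 arrays. The 3 Nrg1 values at 100 pM lie above all others, Errfi1 is lowest at 100 pM, and 1 vehicle array of Ereg lies well below the rest.

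Among the ligands, Nrg1 separated the doses most clearly. Nrg1 encodes neuregulin 1, a ligand of ERBB3 and ERBB4. Its values were 8.13, 8.10 and 8.13 in vehicle, 8.13, 8.12 and 8.13 at 10 pM, and 8.25, 8.26 and 8.18 at 100 pM. All 3 arrays at 100 pM lay above all 6 others, which did not separate by group. Nrg1 was the only member whose 100 pM arrays did not overlap the vehicle arrays, against 12.5% of all genes. Its level was 8.23 ± 0.042 at 100 pM and 8.12 ± 0.020 in vehicle (SD, n = 3 each), a difference of 0.11 ± 0.03 (SE) or 1.08-fold (95% interval 1.02 to 1.14). The limma adjusted p was 0.263, and 19.3% of all genes had a larger difference. Against 10 pM the 100 pM difference was 0.10 ± 0.03, or 1.07-fold, with an adjusted p of 0.326. The 10 pM minus vehicle difference was 0.01 ± 0.03, with an interval of 0.951-fold to 1.06-fold. The spread of Nrg1 within groups was small, with an SD of 0.0277, and 94.4% of genes had a larger one.

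Hbegf encodes heparin-binding EGF-like growth factor, a ligand of EGFR. Its values were 8.16, 8.32 and 8.24 in vehicle, 8.31, 8.26 and 8.17 at 10 pM, and 8.28, 8.47 and 8.32 at 100 pM. The groups overlapped, with the highest value on 1 array at 100 pM. The 100 pM minus vehicle difference was 0.12 ± 0.06, with an interval of 0.981-fold to 1.20-fold and a limma adjusted p of 0.564. The 10 pM minus vehicle difference was 0.01 ± 0.06.

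Ereg encodes epiregulin, which binds EGFR. Its values were 7.17, 7.48 and 7.50 in vehicle, 7.34, 7.33 and 7.31 at 10 pM, and 7.39, 7.43 and 7.47 at 100 pM. The 100 pM arrays all lay above the 10 pM arrays, while the vehicle arrays spanned both. The 100 pM minus 10 pM difference was 0.10 ± 0.08, with a limma adjusted p of 0.742. The 100 pM minus vehicle difference was 0.04 ± 0.08, and the 10 pM minus vehicle difference was -0.05 ± 0.08. Without vehicle replicate 1, the lowest array, they were -0.06 and -0.16, and neither was called. The 100 pM difference thus changed sign without that array, while the 10 pM difference kept its sign and was larger. The SD of Ereg in vehicle, 0.18, was the widest of any member in any group.

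Tgfa and Btc, which encode the EGFR ligands transforming growth factor alpha and betacellulin, were not called in any comparison. Tgfa had 7.03, 7.03 and 6.96 in vehicle, 7.03, 7.14 and 7.03 at 10 pM, and 7.03, 7.11 and 7.03 at 100 pM. The groups shared the value near 7.03, and the 100 pM minus vehicle difference was 0.05 ± 0.05 (interval 0.963-fold to 1.11-fold, limma adjusted p 0.749). Btc had 5.65, 5.46 and 5.57 in vehicle, 5.47, 5.58 and 5.52 at 10 pM, and 5.52, 5.49 and 5.42 at 100 pM. Its groups overlapped too, and the 100 pM minus vehicle difference was -0.08 ± 0.05 (interval 0.868-fold to 1.03-fold, adjusted p 0.658).

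Of the receptors, Erbb3 had the largest differences from vehicle and the lowest signal. Its values were 5.83, 5.63 and 5.73 in vehicle, 5.83, 5.93 and 5.86 at 10 pM, and 5.83, 5.98 and 5.83 at 100 pM. Vehicle replicate 1 reached the lowest values of both E2 groups, so the groups met at 5.83. The level was 5.87 ± 0.050 at 10 pM, 5.88 ± 0.085 at 100 pM and 5.73 ± 0.098 in vehicle (SD, n = 3 each). The 10 pM minus vehicle difference was 0.14 ± 0.06, or 1.10-fold (95% interval 1.00 to 1.21), and 6.19% of genes had a larger one. The 100 pM minus vehicle difference was 0.15 ± 0.06, or 1.11-fold (1.01 to 1.22). The limma adjusted p was 1 at 10 pM and 0.433 at 100 pM, and the 100 pM minus 10 pM difference was 0.01 ± 0.06. Schwann cells are known for Erbb3, and of 7 marker genes of Schwann and glial cells 5 were measured. S100b and Cdh19 were among the dimmest 30% of genes. The list's mean log2 signal was 5.32 to 5.42 at 10 pM, 5.33 to 5.41 at 100 pM and 5.33 to 5.38 in vehicle. That mean joins differences of opposite sign. By gene, 100 pM minus vehicle gave 0.16 for Sox10, 0.16 for Foxd3, 0.08 for Mbp, 0.06 for S100b and -0.34 for Cdh19. The 10 pM minus vehicle differences lay between -0.02 (Mbp) and 0.08 (Foxd3). None of these differences was called, and their part in the Erbb3 differences was not tested.

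Egfr encodes the EGF receptor itself. Its values were 10.05 on each of the 3 vehicle arrays, 10.11, 10.08 and 10.05 at 10 pM, and 10.03, 9.95 and 10.05 at 100 pM. The 10 pM arrays lay above the arrays of the other groups, but by less than 0.01 for the lowest of them. Egfr was the only member whose 10 pM arrays did not overlap the vehicle arrays, against 5.93% of all genes. The differences were 0.03 ± 0.04 for 10 pM minus vehicle, -0.04 ± 0.04 for 100 pM minus vehicle and -0.07 ± 0.04 for 100 pM minus 10 pM, the last with a limma adjusted p of 0.587.

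Erbb2 encodes the partner receptor without a ligand. Its values were 7.86, 7.84 and 7.86 in vehicle, 7.97, 7.83 and 7.87 at 10 pM, and 7.97, 7.76 and 7.86 at 100 pM. The vehicle arrays lay within the range of both E2 groups. The differences from vehicle were 0.03 ± 0.06 at 10 pM and 0.01 ± 0.06 at 100 pM, with intervals of 0.935-fold to 1.12-fold and 0.92-fold to 1.10-fold. A further probeset annotated to Erbb2 together with another gene was not used.

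Errfi1, the inhibitor, had the smallest F test p of the members. Its values were 9.68, 9.73 and 9.76 in vehicle, 9.75, 9.74 and 9.80 at 10 pM, and 9.52, 9.55 and 9.69 at 100 pM. The 100 pM arrays all lay below the 10 pM arrays, and 1 of them reached above the lowest vehicle array. The 100 pM minus 10 pM difference was -0.17 ± 0.05, or 0.888-fold (95% interval 0.822 to 0.959), with an unadjusted p of 0.0071 and an adjusted p of 0.231 in limma. It was the largest member difference, and 6.68% of all genes had a larger one. The 100 pM minus vehicle difference was -0.13 ± 0.05, or 0.912-fold (0.844 to 0.986), with an adjusted p of 0.357. The level was 9.59 ± 0.091 at 100 pM, 9.76 ± 0.032 at 10 pM and 9.72 ± 0.037 in vehicle (SD, n = 3 each). The non-monotonic difference was 0.11 ± 0.04, with an adjusted p of 0.877.

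**Figure D2:**
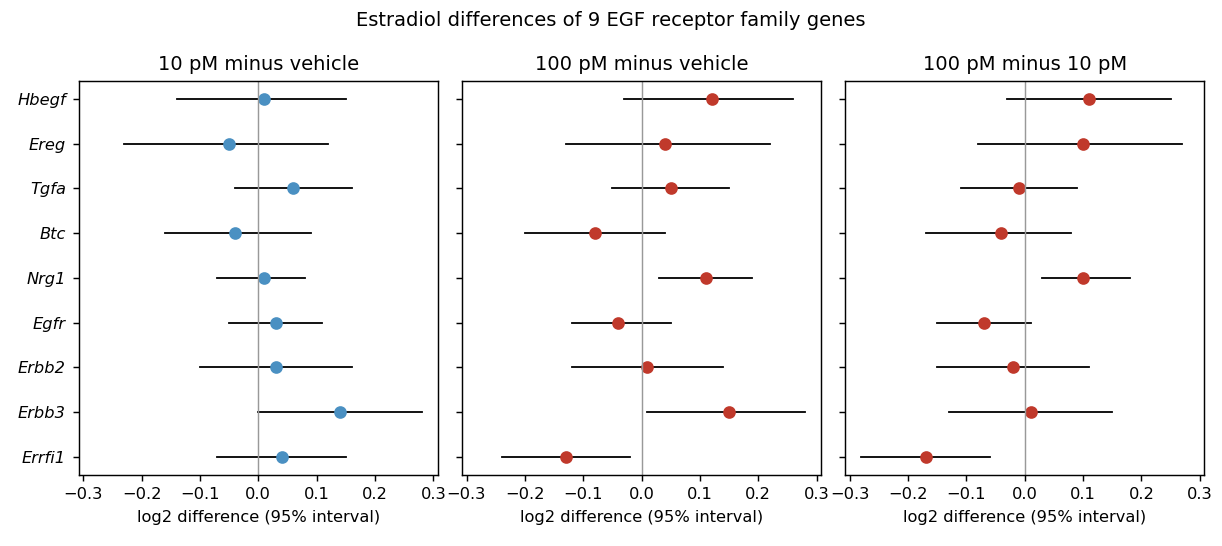
Log2 differences of the 9 measured members (rows) for 10 pM minus vehicle, 100 pM minus vehicle and 100 pM minus 10 pM E2, as points with 95% intervals from limma. The intervals of Nrg1 and Errfi1 at 100 pM lie off 0 against both vehicle and 10 pM, and that of Erbb3 lies at or off 0 against vehicle, but none of these differences was called after adjustment.

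By the order of their group means, 3 members had means that increased with dose (Hbegf, Nrg1 and Erbb3), 1 had means that decreased (Btc), 4 were highest at 10 pM (Tgfa, Egfr, Erbb2 and Errfi1) and 1 was lowest at 10 pM (Ereg). Of all genes, 21.3%, 17.4%, 32.1% and 29.1% had means in these orders. For 100 pM against 10 pM E2, 4 of 9 members had arrays that did not overlap (Ereg, Nrg1, Egfr and Errfi1), against 12.3% of all genes, and none of the 4 differences was called.

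Exactly repeated values bear on how these spreads are read. In the deposited table Tgfa had 1 identical value on 5 of 9 arrays, spread over all 3 groups, and Nrg1, Egfr and Erbb3 each had 1 on 4 arrays. Of all genes, 27.8% had the same value on 4 or more arrays and 12.5% on 5 or more. Where such values fall in 1 group they bring its SD towards 0, as for Egfr in vehicle, and their origin was not tested.

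The members with the smallest F test p were each set against all other genes over the 9 arrays, as a description. The genes most like Errfi1 were Tmem123, Il1rl2 and Gdap10, with Pearson r of 0.968, 0.96 and 0.958, and 41 genes had an r above 0.9. For Nrg1 they were Ces1b, 5031439G07Rik and Snapc4, with r of 0.978, 0.959 and 0.95. Their log2 values ranged over 0.2, 0.26 and 0.05 across the 9 arrays, so Snapc4 was nearly flat. For Erbb3 they were Olfr64, A730036I17Rik and Gm5105, with r of 0.93, 0.93 and 0.929, and 11 genes had an r above 0.9. Each r was picked as among the highest of all genes, and all values of a pair came from the same arrays.

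The rest of the pathway was followed in 6 lists of 81 genes, of which 75 were measured. The lists were chosen with earlier results of these data known, so their counts are no test of the pathway. For 100 pM minus vehicle 4 of 75 rose and none fell, against 1.13% of all genes called, of which 89 rose and 137 fell. In the same comparison 47 of 75 were higher, against 53% of all genes, and the median difference was 0.03, against 0.005 over all genes. For 10 pM minus vehicle none rose or fell, and for 100 pM minus 10 pM 1 rose and none fell, against 0.833% of all genes called. Other ligands and ERBB4 held 6 measured genes, 5 of them among the dimmest 30%, and none was called. The smallest F test p there belonged to Nrg4 and Epgn, which encode neuregulin 4 and epigen, with 100 pM minus vehicle differences of 0.11 and 0.04 (limma adjusted p 0.595 and 0.849).

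Proteases that release the ligands, with the iRhom proteins that the ADAM17 protease needs, held 9 measured genes, and none was called. Rhbdf2, which encodes iRhom2, had 6.85, 6.71 and 6.76 in vehicle, 6.80, 6.80 and 6.73 at 10 pM, and 6.91, 7.01 and 6.97 at 100 pM. Its 100 pM arrays lay above all others, and the 100 pM minus vehicle difference was 0.19 ± 0.05 with a limma adjusted p of 0.135. Adam17 had a difference of -0.07 (adjusted p 0.523). Of 13 measured adaptors and kinases none was called, and Map2k2 and Nras, which act between receptor and ERK, had differences of 0.14 and 0.07 (adjusted p 0.318 and 0.56).

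Among 8 co-receptors and ligand-associated proteins, Cd44 rose at 100 pM. Cd44 encodes the hyaluronan receptor, which can hold HB-EGF at the cell surface. Its values were 7.64, 7.93 and 7.82 in vehicle, 7.90, 7.94 and 7.80 at 10 pM, and 8.10, 8.34 and 8.30 at 100 pM. All 100 pM arrays lay above the others, and the 100 pM minus vehicle difference was 0.45 ± 0.09 with a limma adjusted p of 0.0485. The call was lost in 11 of 18 other settings, with adjusted p of up to 0.202, among them leaving out any 1 array but 100 pM replicate 1 (differences then of 0.37 to 0.51). Cd82, a tetraspanin, had a difference of -0.14 (adjusted p 0.194).

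Among 22 feedback inhibitors, Spry2 and Ptprk rose at 100 pM against vehicle and none fell, where 1.13% of all genes were called. The list takes in inhibitors of the pathway in general, and whether ErbB signals induce them in these cells was not tested. Spry2 encodes Sprouty 2, an inhibitor of the RAS to ERK route. Its values were 8.15, 8.22 and 8.21 in vehicle, 8.47, 8.35 and 8.29 at 10 pM, and 8.43, 8.48 and 8.49 at 100 pM. Both E2 groups lay above vehicle. The 100 pM difference was 0.27 ± 0.05 with a limma adjusted p of 0.0402, and the 10 pM difference of 0.18 was not called. Ptprk encodes a receptor-type phosphatase reported to act on EGFR in human cells. It had 9.00, 9.11 and 9.04 in vehicle, 9.08, 9.11 and 9.07 at 10 pM, and 9.27, 9.24 and 9.32 at 100 pM. Only the 100 pM arrays stood apart, and the difference from vehicle was 0.22 ± 0.04 with an adjusted p of 0.0376. The Spry2 call was lost in 11 of 18 other settings, with adjusted p of up to 0.154, among them leaving out any 1 array but 10 pM replicate 1 or 3. The Ptprk call was lost in 12 of 18, with adjusted p of up to 0.159, among them leaving out any 1 array but vehicle replicate 2. Errfi1, an inhibitor as well, had a lower mean at 100 pM than in vehicle and was not called.

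Among 17 early targets, Ccnd1 rose at 100 pM against both vehicle and 10 pM and was the only pathway gene called in the F test, with an adjusted p of 0.00615. Ccnd1 encodes cyclin D1, which drives entry into the cell cycle. Its values were 9.08, 9.19 and 9.16 in vehicle, 9.18, 9.25 and 9.20 at 10 pM, and 9.57, 9.64 and 9.53 at 100 pM. All 100 pM arrays lay above the others. The limma difference was 0.44 ± 0.05 against vehicle (adjusted p 0.00359) and 0.37 against 10 pM (adjusted p 0.0097). The call against vehicle was lost in 1 of 18 other settings, with only the compared groups in the fit (adjusted p 0.0527). The call against 10 pM was lost in 5 of 18, among them without 10 pM replicate 1 (0.0616) and without 10 pM replicate 3 (0.057). Fosb, a subunit of the AP-1 transcription factor, had a difference from vehicle of -0.17 ± 0.04 (adjusted p 0.0892).

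**Figure D3:**
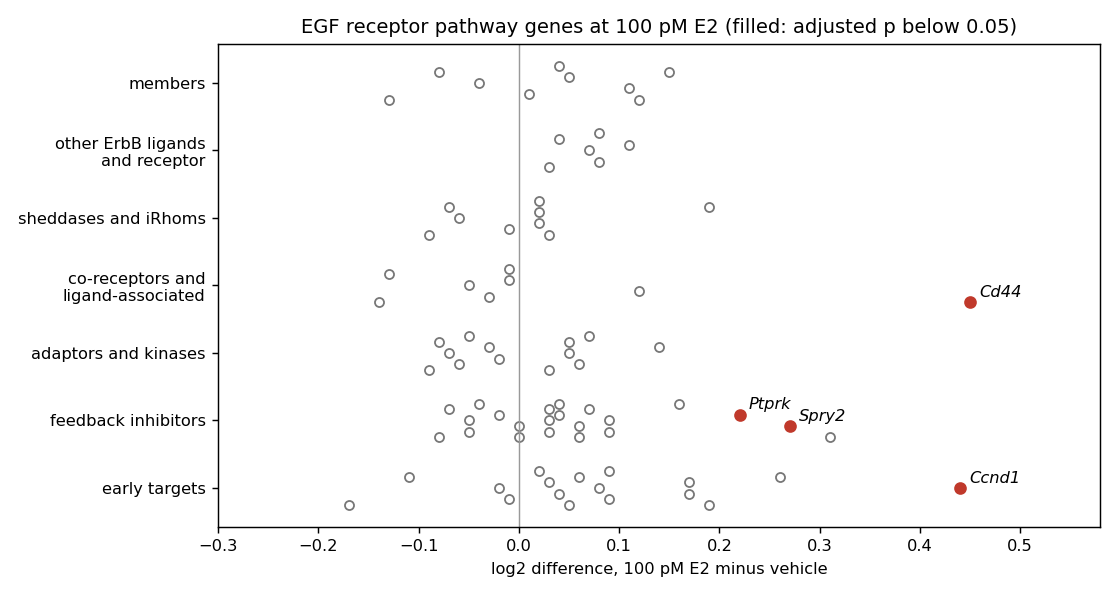
Log2 difference of 100 pM E2 minus vehicle (horizontal axis) for the 9 members and the 75 measured genes of 6 pathway lists (rows), 1 point a gene, with vertical offsets for legibility only. Filled points passed an adjusted p of 0.05: Cd44, Ptprk, Spry2 and Ccnd1, all higher at 100 pM.

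**Figure D4:**
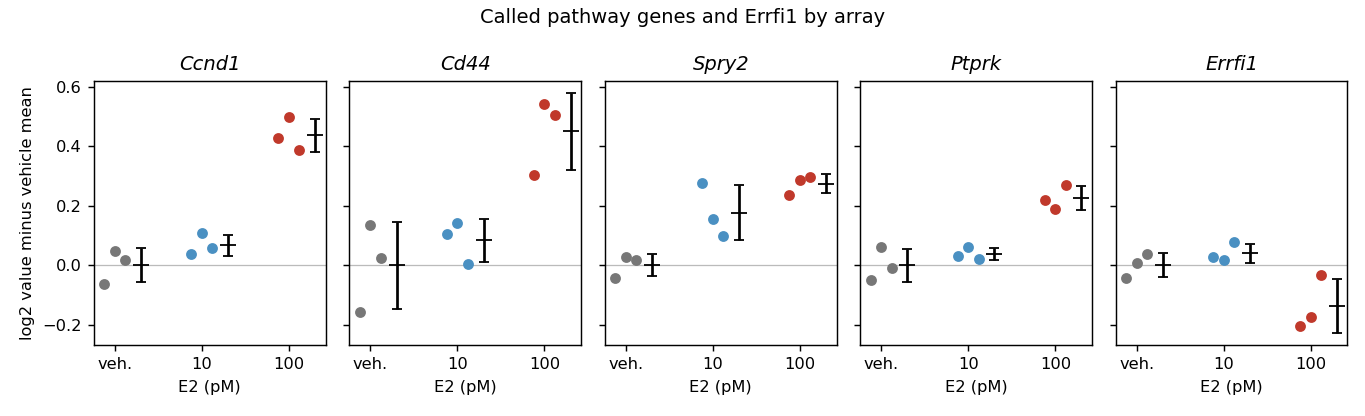
Log2 signal minus the vehicle mean (vertical axis) on each array by E2 dose (horizontal axis) for the 4 called pathway genes and Errfi1. Points are single arrays and black bars are means with SD of 3 arrays. Ccnd1, Cd44 and Ptprk stood apart at 100 pM alone, and Spry2 was above vehicle at both doses.

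Upstream sequences are shown for Errfi1, which encodes an inhibitor of EGFR, and Spry2, which encodes an inhibitor of the RAS to ERK route. Errfi1 had a lower mean at 100 pM that was not called, and Spry2 rose. Sequences are the 250 bases before the annotated start from RefSeq (GRCm38.p6), 5′ to 3′ on the gene's strand, with matches to searched motifs in capitals. Errfi1 has a pair of annotated starts, and the downstream one is shown, at chr4:150854820-150855069 on the plus strand. The Spry2 window is chr14:105896820-105897069 on the minus strand.
Errfi1: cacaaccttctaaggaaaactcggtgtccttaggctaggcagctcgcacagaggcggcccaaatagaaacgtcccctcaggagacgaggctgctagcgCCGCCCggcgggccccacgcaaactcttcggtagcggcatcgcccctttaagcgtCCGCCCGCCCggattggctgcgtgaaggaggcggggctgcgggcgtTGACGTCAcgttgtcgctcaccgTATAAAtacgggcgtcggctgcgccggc
Spry2: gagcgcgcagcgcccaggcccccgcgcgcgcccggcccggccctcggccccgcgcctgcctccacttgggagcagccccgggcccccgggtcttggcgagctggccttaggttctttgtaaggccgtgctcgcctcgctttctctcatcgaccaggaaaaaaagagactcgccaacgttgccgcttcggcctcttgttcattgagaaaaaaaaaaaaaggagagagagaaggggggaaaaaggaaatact
The window before the other, upstream Errfi1 start held none of the 5 motifs searched. The Errfi1 window shown held a cAMP response element (TGACGTCA) 51 bases before the start, a TATA box (TATAAA) 28 bases before it, and 3 GC boxes (GGGCGG on either strand), of which 2 overlap. The Spry2 window held none of these. Among 32851 promoter windows of this length, 1.55% held the cAMP response element on either strand, 7.59% the TATA box on the gene's strand and 32.7% the GC box. The palindromic consensus estrogen response element was found in 0.0639% of windows and the AP-1 site (TGANTCA) in 6.75%, on either strand. Neither was in a window of Tgfa, Btc, Egfr, Erbb2, Errfi1, Cd44, Spry2 or Ptprk, the members and called genes with a matched entry. A match is a description of letters and not a site shown to be used.

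Other cell types in the culture were followed by marker lists. The 10 mesenchymal markers had a mean log2 signal of 11.37 to 11.44 at 100 pM, 11.54 to 11.55 at 10 pM and 11.52 to 11.53 in vehicle, and 4 fell at 100 pM against vehicle (Col3a1, Pdgfra, Dcn and Lum). In the same comparison 3 were higher and not called: Vim by 0.13, with arrays that did not overlap, Thy1 by 0.08 and Fn1 by 0.04. Col1a1, Col1a2 and Pdgfrb differed by -0.01, -0.01 and -0.02, so the lower mean did not extend to every marker. Of 12 epithelial markers 6 were among the dimmest 30%, the defining Epcam and Cdh1 included, and the list's mean was 5.76 to 5.89 at 100 pM and 5.75 to 5.81 in vehicle. Krt18, a keratin of simple epithelia, rose at 100 pM against 10 pM by 0.57 (limma adjusted p 0.0428), and its difference from vehicle was 0.43 (adjusted p 0.112), with arrays that did not overlap. The other epithelial markers differed from vehicle at 100 pM by -0.08 (Esrp1) to 0.08 (Krt8), and none was called. Of 10 macrophage markers C1qc and Adgre1 were among the dimmest. Against vehicle 0 of the 10 were higher at 100 pM, and C1qb alone was called, as lower. The macrophage list's mean was 5.64 to 5.70 at 100 pM and 5.87 to 6.03 in vehicle. The endothelial list's mean was 5.83 to 5.90 at 100 pM and 5.73 to 5.86 in vehicle. Of its 7 genes 3 were among the dimmest 30%, and Emcn alone was called, with a difference from vehicle of 0.82. The others lay between -0.15 (Tek) and 0.04 (Tie1). The mean of the 6 smooth muscle markers was 11.36 to 11.43 at 100 pM and 11.38 to 11.45 in vehicle. Against vehicle 2 of these 6 were higher at 100 pM, and none was called. Myh11 differed from vehicle by -0.19 at 100 pM and -0.11 at 10 pM, with arrays that did not overlap. Fewer cells of a type and less RNA per cell cannot be told apart in such samples. The part of these markers in the differences of Nrg1, Errfi1 and the called pathway genes was not tested.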

How the data were processed

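Total RNA of 9 samples was measured on Affymetrix Mouse Gene 1.0 ST arrays, 1 array a sample. The authors made the deposited log2 values per probeset with GCOS (version not given in the sources used here). That these are log2 was judged from their range, with array medians between 6.17 and 6.20. Scanner files were not used, so background correction and centring could not be checked. Groups and replicate numbers came from the sample titles. The labels give the vehicle as 0.05% ethanol in one place and differently in another.

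Of 35556 probesets, 21789 had 1 gene symbol, 1621 had several and 12146 had none in the platform annotation. Entrez identifiers of 21698 matched the current mouse gene table. For the 999 genes with over 1 probeset, the probeset of highest mean was used. All 9 arrays entered a single linear model of the 3 group means in limma 3.58.1 (R 4.3.3, lmFit and eBayes, two-sided), with Benjamini-Hochberg adjustment over 19938 genes and no filter on dim genes. The tests were the F test, the 3 pairwise contrasts and the contrast of 10 pM with the mean of the other groups. The median SE of a pairwise difference was 0.056, and the number of arrays limits the precision. The procedure was tested on simulated data. Alternatives were centring each array on its median, quantile normalization, all probesets, a filter that drops the dimmest 30% of genes, mean probesets, trend and robust eBayes, no moderation, only the compared groups, the replicate number as a block, an adjusted p below 0.10, and leaving out each array. Figures were drawn with matplotlib 3.10.9.

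All 10 members were to be named. Of the pathway lists, every called gene and the 2 genes of smallest F test p per list were named, and for the 3 members of smallest F test p the 3 most similar genes. The members and lists were chosen with earlier results of these data known.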

Additional observations from a re-analysis of the deposited data

How the results depend on the processing

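No member was called in any of 93 combinations of comparison and setting, and the lowest member adjusted p was 0.0581, for Errfi1 in 100 pM minus 10 pM (differences of -0.22 to -0.14). Of 486 member differences under other settings, rounded to 2 decimals, 12 turned to the opposite sign. The other 474 did not, those that came to 0 included. All 12 turned when 1 array was left out, and none of them was over 0.04 in size in the full data. Leaving out 1 array gave ranges of -0.06 to 0.10 for Ereg and -0.04 to 0.06 for Erbb2 in 100 pM minus vehicle. In 10 pM minus vehicle they were -0.03 to 0.05 for Hbegf, -0.09 to 0.01 for Btc, -0.01 to 0.01 for Nrg1 and -0.01 to 0.06 for Erbb2. In 100 pM minus 10 pM they were -0.04 to 0.03 for Tgfa, -0.08 to 0.03 for Erbb2 and -0.04 to 0.03 for Erbb3. Counts of all genes called, for the F test, 100 pM minus vehicle and 100 pM minus 10 pM in that order, were 310, 365 and 302 at an adjusted p below 0.10, 65, 119 and 30 with all probesets, 308, 349 and 284 with trend and robust, 1, 30 and 1 without moderation, and 310, 343 and 291 without the dimmest 30% of genes. With only the compared groups in the fit, 10 genes were called for 100 pM minus vehicle and 1 for 100 pM minus 10 pM. The non-monotonic comparison called 0 with all probesets and 6 with trend and robust, and 10 pM minus vehicle called 1 with median centring. Leaving out 1 array gave 85 to 176 in the F test, 88 to 259 for 100 pM minus vehicle, 30 to 178 for 100 pM minus 10 pM and 0 to 1 in the non-monotonic comparison. The cause of these shifts was not tested. Deviations of same-numbered arrays correlated at -0.11 to 0.20 over 9 pairs, against -0.19 to 0.17 over 18 pairs of unlike number. Of the 9 arrays, 0 were closest to their own number in both other groups. These values gave no sign of pairing by number, but array noise could hide it, so pairing was not settled. With the replicate block 122, 168 and 133 genes were called in the same order, 1 in 10 pM minus vehicle, and no member, and the Spry2 and Ptprk calls in 100 pM minus vehicle were lost (adjusted p 0.108 and 0.0918).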
